A study of Homo sapiens with 10 samples.

Results

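The 46 genes described here carry new secretory and membrane proteins into the endoplasmic reticulum (ER), fold and glycosylate them, and move them on to the Golgi. They were listed by name, as translocation, folding and secretory genes. A probe of the array's gene table named 40 of them, with 49 probes in all out of 48107 in the deposited table, and SRPR was found under its current symbol, SRPRA. The other 6, SEC61G, SEC62, SSR1, PDIA3, SEC31A and KDELR2, had no named probe and were not analysed here. All 40 passed the filter on dim probes (detection p-value below 0.05 on at least 5 arrays), and 39 of them were detected on all 10 arrays. The whole comparison covered 9041 genes.

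RNA was measured on Illumina BeadChips in a single human lymphoma line, OCI-LY10, which was grown from a diffuse large B-cell lymphoma of the activated B-cell type. The cells were treated in culture for 18 hours with 1 micromolar CC-122 or with the vehicle DMSO, with 5 arrays in each group and no further genetic change named in the labels. CC-122 (avadomide) makes the cereblon ubiquitin ligase take up Ikaros and Aiolos, both lymphoid transcription factors, for degradation. Nothing in the labels says that replicates came from separate cultures, so the spread behind the p-values is that of these samples alone and may be technical.

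Of 8 B-cell markers with a named probe, 7 were detected on all 10 arrays and passed the filter on dim probes. Of these 7, 2 rose after CC-122 and 3 fell, among them CD22 by 0.78 on the log2 scale. Among all genes tested, 8.15% were called higher and 6.67% lower. The filter was passed by 0 of 8 T and NK cell markers, by 2 of 8 monocyte and macrophage markers (CD14 and FCGR3A), by 1 of 6 erythroid and platelet markers and by 1 of 8 fibroblast and epithelial markers. That 1 was EPCAM, at a mean log2 level of 8.96 after DMSO and 8.82 after CC-122. The part of these markers in the results below was not tested. Arrays of one group correlated at 0.989 to 0.993 across genes. The median raw intensity was 108.9 on CC-122 replicate 3 and 74.0 to 81.6 on the others.

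As background, a ribosome that begins a secretory protein is brought to the ER by the signal recognition particle and its receptor, and the chain passes through the Sec61 channel. Signal peptidase removes the leader, oligosaccharyltransferase adds sugars, and chaperones and disulfide isomerases fold the chain before vesicles coated with COPII carry it to the Golgi. Plasma cells enlarge this machinery to secrete antibody, under the transcription factor XBP1, and lymphomas of the activated B-cell subtype resemble B cells that have started on that path. The unfolded protein response raises many of these genes through short promoter elements.

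Such elements are shown first for the members that hold them. RefSeq promoter windows of build GRCh38.p14 run from 250 bases before a listed start site to 50 bases after it, and 40 of the 46 members had at least 1. The ER stress element ERSE was searched on both strands as CCAAT, 9 bases of any kind and CCACG, its close relative ERSE-II as ATTGG, 1 base of any kind and CCACG, and the core of the unfolded protein response element UPRE as TGACGTG. Each match is written from 5′ to 3′ in the direction of the motif, with the fixed bases in capitals and the spacer in lower case.
PDIA6 ERSE: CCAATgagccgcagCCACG
CALR ERSE: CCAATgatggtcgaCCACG
CANX ERSE: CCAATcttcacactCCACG
HSPA5 ERSE: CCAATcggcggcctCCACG
HSP90B1 ERSE, far from the start: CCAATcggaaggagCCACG
HSP90B1 ERSE, near the start: CCAATcgcgccgcaCCACG
CRELD2 ERSE: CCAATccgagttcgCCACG
HYOU1 ERSE-II, both copies: ATTGGaCCACG

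ERSE was present in 6 of the 40 members with a window (15%), and in 25 of all 27305 genes with a window (0.0916%). ERSE-II was present in HYOU1 alone among the members, and in 19 of all genes (0.0696%). The UPRE core was present in 5 of the 40 members (12.5%) and in 654 of all genes (2.40%). In HYOU1 it overlaps the more distant ERSE-II. The elements were searched because they are known from genes of this kind, so these shares are a description and not an independent result. A match describes letters only and does not show that a factor binds there.

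The windows of the 4 members that both held an ERSE or ERSE-II and rose after CC-122 are printed in full on the strand of the gene, with the fixed bases of each motif found in capitals, and HYOU1, which held 2 ERSE-II copies and did not pass the test, follows for comparison. PDIA6 has a further listed start, whose window held none of these motifs. CANX has 3 listed starts whose windows hold the same ERSE, which begins at -151, -189 or -9 depending on the start. The window of a further listed start of CANX held none of these motifs. In HYOU1 the capitals also take in the UPRE core. Counted from the start site, the ERSE runs from -86 to -68 in PDIA6, from -66 to -48 in HSPA5 and from -80 to -62 in CRELD2, and HSP90B1 holds one from -194 to -176 and another from -89 to -71. The elements of CALR, HYOU1 and CRELD2, and the nearer one of HSP90B1, lie on the opposite strand.
PDIA6, chr2:10812736-10813035, minus strand: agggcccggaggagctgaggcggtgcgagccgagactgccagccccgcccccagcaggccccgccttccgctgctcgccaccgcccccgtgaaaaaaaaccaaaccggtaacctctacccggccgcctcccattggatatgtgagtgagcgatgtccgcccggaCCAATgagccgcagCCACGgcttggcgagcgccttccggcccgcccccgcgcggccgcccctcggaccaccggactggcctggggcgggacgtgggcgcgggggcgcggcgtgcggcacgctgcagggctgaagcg
HSPA5, chr9:125241294-125241593, minus strand: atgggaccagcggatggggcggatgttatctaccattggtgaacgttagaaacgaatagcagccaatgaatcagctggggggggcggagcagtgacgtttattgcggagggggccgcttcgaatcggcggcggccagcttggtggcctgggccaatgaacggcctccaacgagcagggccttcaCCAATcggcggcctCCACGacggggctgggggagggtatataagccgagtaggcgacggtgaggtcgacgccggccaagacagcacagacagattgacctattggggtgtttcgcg
HSP90B1, chr12:103930160-103930459, plus strand: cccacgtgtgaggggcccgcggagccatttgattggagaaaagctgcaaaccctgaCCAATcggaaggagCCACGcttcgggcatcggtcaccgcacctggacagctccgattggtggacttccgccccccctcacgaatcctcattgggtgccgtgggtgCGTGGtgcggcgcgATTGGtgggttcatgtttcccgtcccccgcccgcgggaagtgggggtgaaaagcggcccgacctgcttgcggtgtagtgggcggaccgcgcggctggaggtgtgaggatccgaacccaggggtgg
CRELD2, chr22:49918384-49918683, plus strand: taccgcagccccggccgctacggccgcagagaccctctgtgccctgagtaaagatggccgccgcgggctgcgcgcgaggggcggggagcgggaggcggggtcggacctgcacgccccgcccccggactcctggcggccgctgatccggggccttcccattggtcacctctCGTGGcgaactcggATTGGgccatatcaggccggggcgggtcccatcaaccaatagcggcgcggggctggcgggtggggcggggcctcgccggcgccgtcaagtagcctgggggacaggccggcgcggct
HYOU1, chr11:119057156-119057455, minus strand: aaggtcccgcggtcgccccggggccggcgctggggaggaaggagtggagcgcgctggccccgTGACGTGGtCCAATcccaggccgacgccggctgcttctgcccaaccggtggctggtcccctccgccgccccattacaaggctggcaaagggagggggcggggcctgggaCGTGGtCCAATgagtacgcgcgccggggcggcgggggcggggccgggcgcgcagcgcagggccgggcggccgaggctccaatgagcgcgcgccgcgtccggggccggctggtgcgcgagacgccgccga

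**Figure D1:**
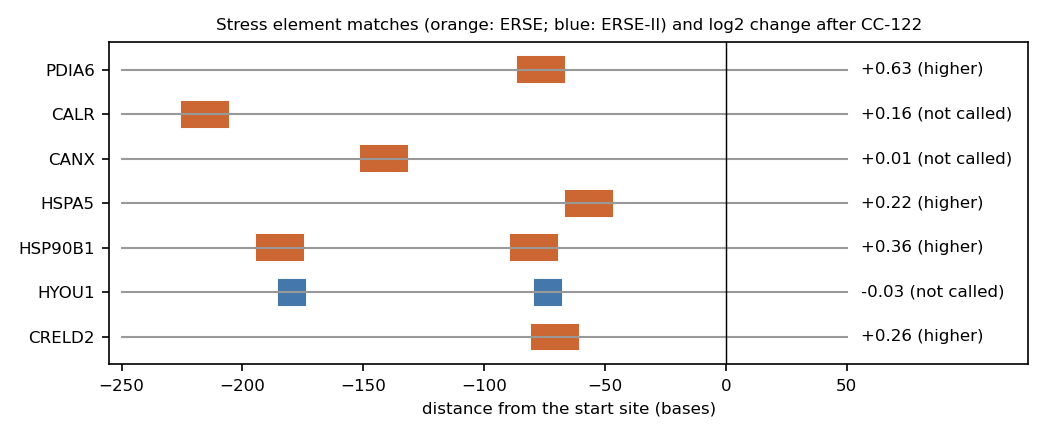
Position of each ERSE (orange) and ERSE-II (blue) match in the promoter windows of the 7 tested members that hold one, against the distance from the start site in bases, with the log2 change after CC-122 at the right. CANX is drawn against 1 of the 3 listed starts whose windows hold its ERSE, which there begins at -151. PDIA6 is drawn against the start whose window holds the match.

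After CC-122, 10 of the 40 members rose and 0 fell by limma with Benjamini-Hochberg adjustment over all 9041 genes. Those that rose were SEC61A1 of the translocon, the isomerases PDIA6 and P4HB, the chaperones HSPA5 and HSP90B1, the stress-induced factor CRELD2, the transport proteins SEC24D and KDELR1, and the immunoglobulin assembly proteins MZB1 and JCHAIN. The share was 25%, where 8.15% of all genes were called higher, and 6.67% of all genes were called lower. The members were brighter than most genes, with a median log2 level per array of 9.25 to 9.55 against 6.86 to 6.88. The part of brightness in these shares was not tested. In such bulk samples more cells expressing a gene and more RNA per cell cannot be told apart. The changes were small, from 1.17-fold to 1.54-fold. At an unadjusted p below 0.05, 14 members were higher and 2, SPCS3 and DNAJB9, were lower. The median log2 change was 0.09 over the members and -0.01 over all genes. Of the 40 members, 30 (75%) lay above 0, against 46.5% of all genes. With the replicate number as a block in the fit, 6 members rose and 0 fell, where 7.64% of all genes were called higher. The calls lost there were those of HSPA5, CRELD2, SEC24D and MZB1.

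For 12 members (30%) all arrays of one group lay on one side of the other group, where 13.4% of all genes had separate groups. Separate groups with CC-122 the higher were seen for 11 members (27.5%) and for 7.34% of all genes. SPCS3 was the exception. With each member set against its own mean over the 10 arrays, the median over the members lay between -0.09 and -0.03 on the DMSO arrays and between 0.02 and 0.07 on the CC-122 arrays. Each of the 5 CC-122 arrays was thus above each of the 5 DMSO arrays.

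**Figure D2:**
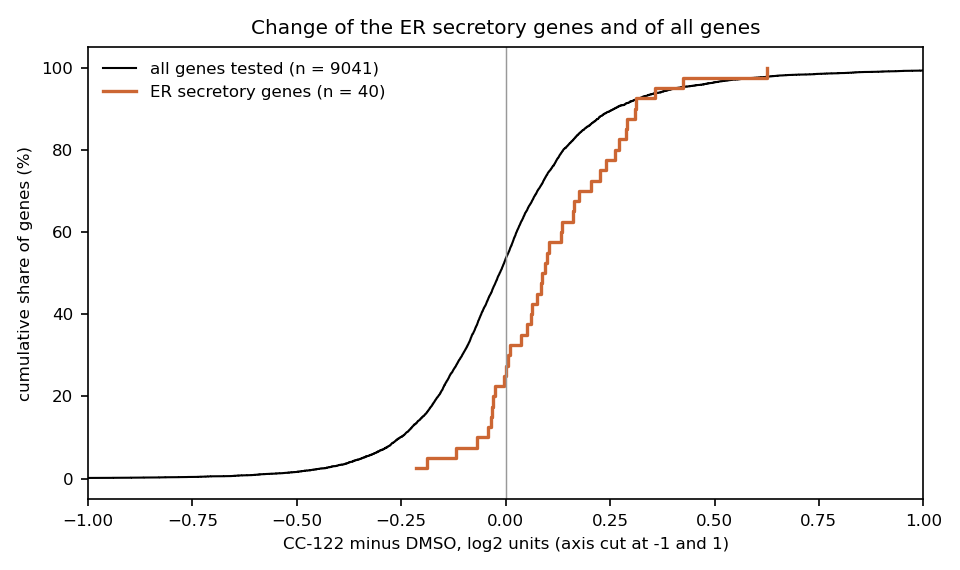
Cumulative share of genes in percent (vertical) against the CC-122 minus DMSO difference in log2 units (horizontal, cut at -1 and 1), for the 40 members (orange) and all 9041 genes tested (black). The member curve lies to the right over most of its range, with medians of 0.09 and -0.01, and ends at 0.63.

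Among the members that act in entry into the ER, SEC61A1, which forms the pore of the translocon, was the one that rose. The 5 DMSO arrays read 9.81, 9.82, 10.00, 10.01 and 10.07 for SEC61A1 on the log2 scale, and the 5 CC-122 arrays read 10.30, 10.17, 10.26, 10.17 and 10.25. The groups did not overlap, although DMSO replicates 1 and 2 lay clearly below the other DMSO arrays. SEC61A1 (chr3:128051641-128071683, build GRCh38.p14 as for all genes below) rose 1.22-fold, by 0.29 ± 0.07 log2 units (SE, adjusted p = 0.0137). SSR4, a subunit of the translocon-associated TRAP complex, came near, at 0.24 (95% interval 0.07 to 0.41, adjusted p = 0.0596), with the groups overlapping. The other translocon members tested were SEC61B, a small channel subunit, at 0.10, SEC63, which recruits HSPA5 to the channel, at 0.06, and the TRAP subunits SSR2 at 0.20 and SSR3 at 0.09, none past the test, so all 6 translocon members differed in the same direction with 1 called. For SSR3 the sign depended on 1 array, at -0.04 without DMSO replicate 4, and SEC63 was at -0.05 without DMSO replicate 2.

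The particle that delivers ribosomes to the channel, taken with its receptor, did not pass the test at any of the 4 members tested. SRP9 and SRP14, which pause translation, differed by 0.09 (95% interval -0.04 to 0.22) and 0.00 (95% interval -0.15 to 0.15). SRP54, which binds the signal sequence, differed by -0.02 (95% interval -0.16 to 0.12) and SRPR, the receptor's alpha subunit, by -0.04 (95% interval -0.19 to 0.12). A dimmer probe of SRP9 gave 0.34 and was called over all kept probes (adjusted p = 0.0397), so the probes of SRP9 disagree in size. SRP9 was called on the mean of its probes, at 0.21 (adjusted p = 0.0268). The dimmer probe of SRP14 gave 0.15 and was not called over all kept probes (adjusted p = 0.140).

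Signal peptidase, which cuts off the leader of the chain, had differences in both directions and no call, with SPCS1 at -0.04, SPCS2 at 0.06 and SPCS3 at -0.22. For SPCS3 the log2 levels were 9.64, 9.72, 9.56, 9.72 and 9.54 on the DMSO arrays and 9.50, 9.51, 9.22, 9.52 and 9.36 on the CC-122 arrays. Every CC-122 array was lower than every DMSO array, with CC-122 replicates 3 and 5 the lowest. The difference missed the threshold (95% interval -0.38 to -0.05, adjusted p = 0.0818). It passed with the fixed background offset, without background correction and with an intensity trend in the variance, at adjusted p = 0.0300, adjusted p = 0.0200 and adjusted p = 0.0153. The other probe of SPCS3 gave -0.16.

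The 5 oligosaccharyltransferase subunits among the members all differed upward by a little, and none passed the test. This enzyme attaches N-linked sugars, and further subunits of it are counted with the entry and glycosylation genes below. RPN1 and RPN2, the ribophorins, were at 0.13 and 0.13. DDOST was at 0.16, DAD1 at 0.10, and the catalytic subunit STT3A at 0.09. RPN2 had separate groups, from 9.03 to 9.19 after DMSO and from 9.22 to 9.32 after CC-122 (95% interval 0.01 to 0.26, adjusted p = 0.155).

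**Figure D3:**
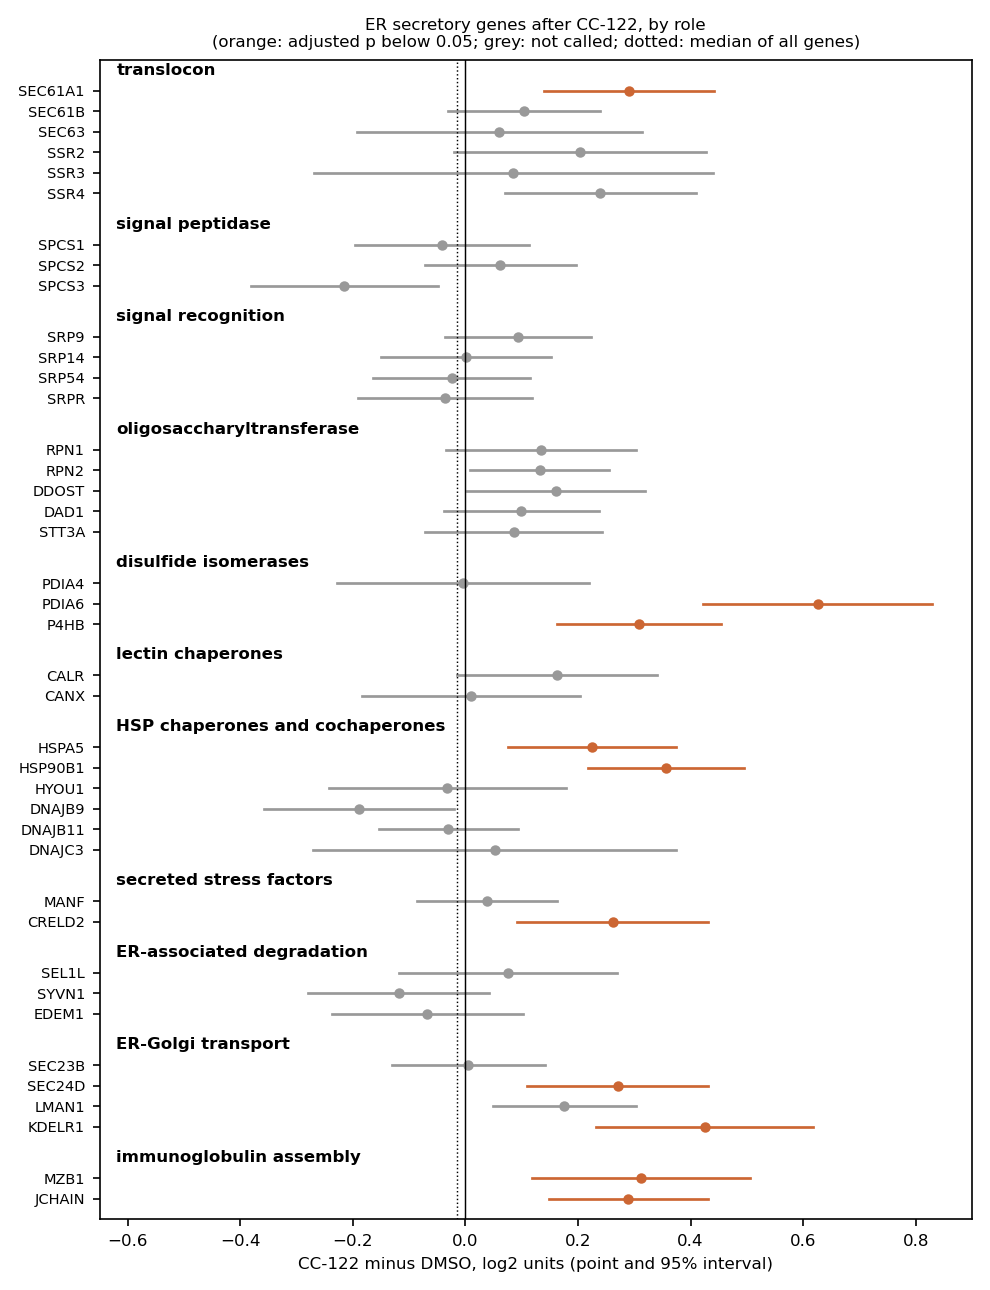
CC-122 minus DMSO difference in log2 units for each of the 40 members tested, grouped by role, with its 95% interval as a bar (5 arrays per group). The 10 called members (orange) lie between 0.22 and 0.63, and the 30 others (grey) between -0.22 and 0.24.

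PDIA6, a protein disulfide isomerase of the ER lumen, had the largest change of the 40. The 5 DMSO arrays read 8.57, 8.50, 8.67, 8.61 and 8.34 for PDIA6 on the log2 scale, and the 5 CC-122 arrays read 9.09, 9.08, 9.06, 9.47 and 9.12. CC-122 replicate 4 stood above the other CC-122 arrays, and the lowest CC-122 array was still well above the highest DMSO array. PDIA6 (chr2:10783391-10837712) rose 1.54-fold, from a mean of 8.54 ± 0.13 to 9.16 ± 0.17 (SD, n = 5 in each group), a difference of 0.63 ± 0.09 log2 units (SE, adjusted p = 0.000557). Its change was above that of 97.8% of all genes tested.

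P4HB, the founding disulfide isomerase and a subunit of prolyl 4-hydroxylase, rose as well. P4HB had log2 levels of 10.56, 10.50, 10.59, 10.47 and 10.35 after DMSO and of 10.94, 10.76, 10.79, 10.75 and 10.79 after CC-122. No CC-122 array overlapped the DMSO group, and CC-122 replicate 1 was the highest array. P4HB (chr17:81843166-81860535) rose 1.24-fold, by 0.31 ± 0.07 log2 units (SE, adjusted p = 0.00751). PDIA4, another isomerase, was at -0.00 (95% interval -0.23 to 0.22) with a sign that turned under several settings. The calreticulin gene CALR differed by 0.16 (95% interval -0.01 to 0.34, adjusted p = 0.222) and passed only without CC-122 replicate 2, the CC-122 array on which it was lowest, at 0.23. Calnexin, CANX, differed by 0.01 (95% interval -0.18 to 0.20). Both proteins hold sugar-bearing chains while they fold.

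HSP90B1 (GRP94), the HSP90 chaperone of the ER, rose. For HSP90B1 the log2 levels were 10.59, 10.44, 10.61, 10.43 and 10.47 on the DMSO arrays and 10.92, 10.83, 10.94, 10.77 and 10.86 on the CC-122 arrays. The groups were separate, with all CC-122 arrays at 10.77 or above and all DMSO arrays at 10.61 or below. HSP90B1 (chr12:103930410-103947926) rose 1.28-fold, by 0.36 ± 0.06 log2 units (SE, adjusted p = 0.00201).

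HSPA5 (BiP), the HSP70 chaperone of the ER and the usual readout of the unfolded protein response, was only just past the threshold. HSPA5 had log2 levels of 7.61, 7.63, 7.69, 7.45 and 7.64 after DMSO and of 7.95, 7.70, 7.79, 7.88 and 7.83 after CC-122. The groups were separate by a narrow margin, since CC-122 replicate 2 lay next to the highest DMSO array. HSPA5 (chr9:125234853-125241343) rose 1.17-fold, from a mean of 7.60 ± 0.09 to 7.83 ± 0.09 (SD, n = 5 in each group), a difference of 0.22 ± 0.07 log2 units (SE, adjusted p = 0.0461). It lost its call when any array except CC-122 replicate 2 was left out, at 0.19 to 0.26 over all 10 omissions with adjusted p up to 0.107. The filter on dim probes also mattered, since the adjusted p was 0.0738 without it.

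The partners of HSPA5 among the members did not pass the test. HYOU1, a nucleotide exchange factor for HSPA5, differed by -0.03 (95% interval -0.24 to 0.18), and its other probe gave -0.14. The J-domain cochaperones DNAJB9, DNAJB11 and DNAJC3 were at -0.19, -0.03 and 0.05, and DNAJB9, a well-known XBP1 target, had an adjusted p of 0.132 with overlapping groups. So 2 of the 6 members that are HSP chaperones or their cochaperones rose.

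CRELD2, a secreted factor induced by ER stress, rose while MANF, another such factor, was not called. The 5 DMSO arrays read 9.21, 9.34, 9.46, 9.36 and 9.12 for CRELD2 on the log2 scale, and the 5 CC-122 arrays read 9.62, 9.45, 9.56, 9.49 and 9.68. The groups overlapped slightly, as CC-122 replicate 2 lay just below DMSO replicate 3. CRELD2 (chr22:49918634-49927537) rose 1.20-fold, by 0.26 ± 0.08 log2 units (SE, adjusted p = 0.0403). The call was lost when DMSO replicate 1, 2, 4 or 5, or else CC-122 replicate 1, 3 or 5, was omitted, with the change over all 10 omissions at 0.22 to 0.30 and adjusted p up to 0.0938, and with median scaling (adjusted p = 0.0592) and without the filter (adjusted p = 0.0685). The CRELD2 call was also lost with the replicate number as a block. MANF differed by 0.04 (95% interval -0.09 to 0.16). The members that remove misfolded proteins were not called. SEL1L and SYVN1 (HRD1), which form the retrotranslocation ligase, were at 0.08 and -0.12, and EDEM1, which hands over glycoproteins, was at -0.07. The SEL1L probe was dim, detected on 2 of the DMSO arrays and 3 of the CC-122 arrays.

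Of the transport members, KDELR1 and SEC24D rose. KDELR1 is the receptor that returns escaped ER chaperones from the Golgi. For KDELR1 the log2 levels were 8.93, 8.89, 8.99, 8.90 and 8.81 on the DMSO arrays and 9.60, 9.31, 9.42, 9.18 and 9.13 on the CC-122 arrays. The groups were separate, and the CC-122 arrays spread more widely than the DMSO arrays, with an SD of 0.19 against 0.06. KDELR1 (chr19:48382575-48397412) rose 1.34-fold, by 0.43 ± 0.09 log2 units (SE, adjusted p = 0.00583).

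SEC24D selects cargo for COPII vesicles. SEC24D had log2 levels of 7.56, 7.71, 7.52, 7.51 and 7.58 after DMSO and of 7.74, 7.76, 7.83, 7.84 and 8.06 after CC-122. The groups were separate, with DMSO replicate 2 and CC-122 replicate 1 almost level, and CC-122 replicate 5 the highest. SEC24D (chr4:118722823-118836126) rose 1.21-fold, by 0.27 ± 0.07 log2 units (SE, adjusted p = 0.0271). The call was lost when DMSO replicate 1, 3 or 4, or else CC-122 replicate 5, was omitted. There the change ranged down to 0.22 and adjusted p up to 0.0636. With the replicate number as a block the call was lost too. LMAN1 (ERGIC-53), a cargo receptor for glycoproteins, had separate groups and differed by 0.18 (95% interval 0.05 to 0.30, adjusted p = 0.064), while SEC23B, another coat subunit, was at 0.01 (95% interval -0.13 to 0.14).

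Both members that serve antibody assembly rose. MZB1 helps immunoglobulin M fold and is found in B cells and plasma cells. The 5 DMSO arrays read 9.61, 9.73, 9.70, 9.72 and 9.77 for MZB1 on the log2 scale, and the 5 CC-122 arrays read 10.22, 9.88, 9.93, 10.24 and 9.83. Every CC-122 array was above every DMSO array, and CC-122 replicates 1 and 4 stood well above the other 3. MZB1 (chr5:139387467-139389913) rose 1.24-fold, by 0.31 ± 0.09 log2 units (SE, adjusted p = 0.0336). Its dimmer probe gave 0.41 and was called over all kept probes (adjusted p = 0.0265), where the brighter probe was not (adjusted p = 0.0510). The call of the brighter probe was lost without any of DMSO replicates 1 to 4 or CC-122 replicates 1 or 4, where the change was at least 0.26 with adjusted p up to 0.0772, and without the filter (adjusted p = 0.0595).

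JCHAIN, the chain that joins immunoglobulin M and A into polymers, was steadier. For JCHAIN the log2 levels were 11.42, 11.37, 11.49, 11.44 and 11.32 on the DMSO arrays and 11.64, 11.62, 11.62, 11.82 and 11.78 on the CC-122 arrays. The groups were separate, with CC-122 replicates 4 and 5 the highest. JCHAIN (chr4:70655541-70666508) rose 1.22-fold, by 0.29 ± 0.06 log2 units (SE, adjusted p = 0.00936).

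**Figure D4:**
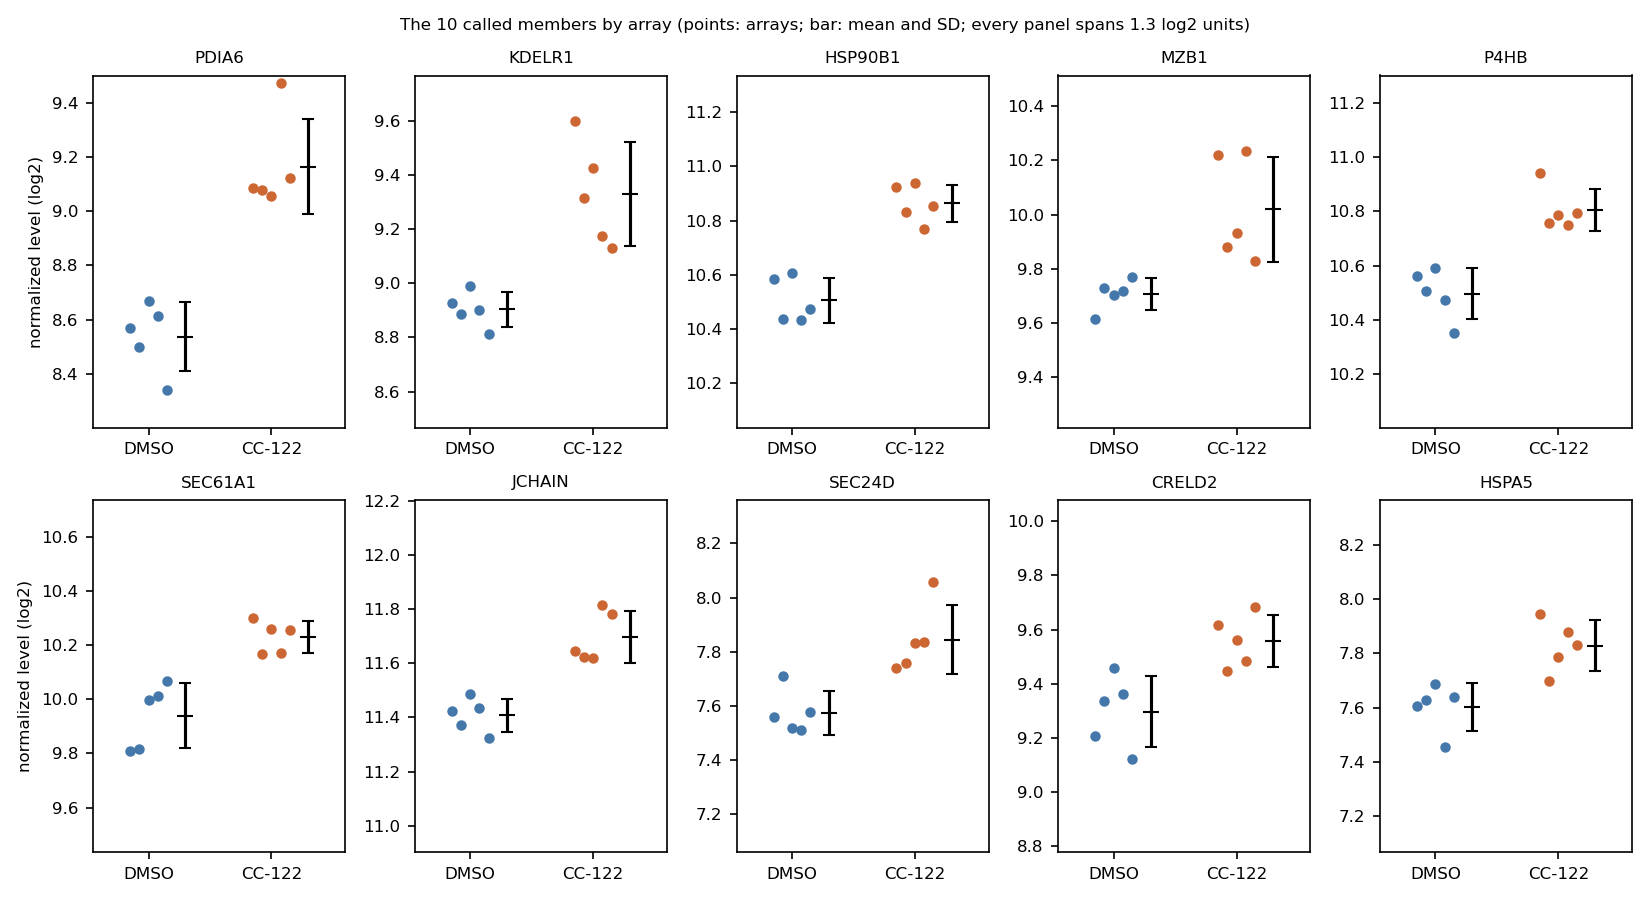
Normalized level (log2) of the 10 called members on each of the 5 DMSO (blue) and 5 CC-122 (orange) arrays, with the mean and SD as black bars and the same vertical span in each panel. The groups are separate in 9 panels and overlap in that of CRELD2.

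Across 20 alternative analyses, 6 of the 10 calls, SEC61A1, PDIA6, P4HB, HSP90B1, KDELR1 and JCHAIN, were kept in all. Omitting CC-122 replicate 3, the array with the highest raw intensity, lost HSPA5 and CRELD2 and left 8 members, and without DMSO replicate 1 or DMSO replicate 4 the count was 6. SSR4 was called under 5 of the 20 and LMAN1 under 4. The intervals of the 30 members that were not called reached from -0.38 (SPCS3) to 0.44 (SSR3). A change of the size of PDIA6, the largest of the members, lay outside all 30 of them. The median change of the called members, 0.30, lay inside several, among them those of SSR2, SSR3 and SSR4. For these a rise of that size is not excluded.

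Members with a stress element are set beside those without. Of the 7 tested members that held an ERSE or ERSE-II, 4 rose (PDIA6, HSP90B1, CRELD2 and HSPA5), with a median log2 change of 0.22. Of the 29 tested members with a window and neither element, 5 rose, with a median of 0.09. Of the 4 tested members with a UPRE core, HYOU1, SEC61A1, SSR3 and SSR4, SEC61A1 rose (25%), and of the 32 with a window and no core 8 rose (25%). Of the other genes tested that held the core, 9.65% were called higher. Of the 17 other genes tested that held an ERSE or ERSE-II, 3 rose (17.6%) and 1 fell, with a median of 0.09. In all other genes tested that had a window and no ERSE or ERSE-II, 8.20% were called higher. The groups are small and were compared after the members' values were known, so no test is given.

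The plasma cell program, to which the secretory genes belong, did not move as one. XBP1, the factor that drives secretory genes, rose, and it too holds an ERSE. XBP1 had log2 levels of 11.08, 10.99, 11.01, 10.94 and 11.08 after DMSO and of 11.47, 11.35, 11.36, 11.43 and 11.48 after CC-122. Its groups were separate, with a difference of 0.40 ± 0.06 log2 units (SE, adjusted p = 0.000557), above all members but PDIA6 and KDELR1. PRDM1 (Blimp-1), which commits B cells to the plasma cell fate, fell in the same arrays. The 5 DMSO arrays read 6.37, 6.45, 6.32, 6.36 and 6.34 for PRDM1 on the log2 scale, and the 5 CC-122 arrays read 5.86, 5.80, 6.18, 5.99 and 5.71. Its groups were separate, and it fell by 0.46 ± 0.09 log2 units (SE, adjusted p = 0.00252), by 0.27 with the fixed background offset and by 0.24 without background correction. IRF4, which acts upstream of both in that program, fell by 0.54 ± 0.10 log2 units (SE, adjusted p = 0.00184), from a mean of 9.08 ± 0.10 to 8.54 ± 0.20 (SD, n = 5 in each group), with separate groups.

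Of 20 plasma cell program genes tested outside the members, from 26 listed, XBP1 was the 1 that rose and 4 fell. The shares were 5% higher and 20% lower, against 8.15% and 6.67% of all genes. The other genes that fell were POU2F2 (OCT2) by 0.35 ± 0.09 log2 units (SE, adjusted p = 0.0147) and its coactivator POU2AF1 (OBF1) by 0.23 ± 0.06 log2 units (SE, adjusted p = 0.0254). POU2F2 fell by 0.18 with the fixed offset and by 0.15 without background correction, and POU2AF1 lost its call when replicate 1 or 2 of either group was omitted, at an adjusted p of at most 0.0637. The median of the list was 0.05.

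Of 56 further ER-Golgi transport genes tested, 10 rose and 0 fell (17.9%, median 0.08), with 7 to 12 rising and 0 falling across the alternatives. Among all genes tested, 8.15% were called higher and 6.67% lower. The 6 with the largest changes were GORASP1, a stacking protein of the Golgi, at 0.61, the GTPases ARF3 and ARF4 at 0.42 and 0.37, YIF1B at 0.40, SEC13, a coat subunit of COPII, at 0.39 and the golgin GOLGB1 at 0.38. GOLGB1 lost its call without any of 7 arrays (adjusted p up to 0.0820), and ARF3 without DMSO replicate 1 or 4 (adjusted p up to 0.0525). Of 36 further entry and glycosylation genes, 2 rose and 2 fell (5.56% each), at a median of 0.04. Both shares were below those of all genes but rest on few calls, with 1 to 3 rising and 1 to 3 falling across the alternatives. EMC7 of the membrane insertase rose by 0.27 and SRPRB, the partner of SRPR, by 0.22. TRAM2 was at -0.36 and GET1 at -0.26. SRPRB lost its call without any of 8 arrays (adjusted p up to 0.102), and GET1 without any of 6 (adjusted p up to 0.0654).

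Of 47 further folding and degradation genes, 2 rose and 2 fell (4.26% each), at a median of 0.04. Both shares were below those of all genes, 8.15% higher and 6.67% lower. They too rest on few calls, with 1 to 4 rising and 1 to 4 falling across the alternatives. SDF2L1, a partner of HSPA5 that also holds an ERSE, rose by 0.22 and FKBP2, a prolyl isomerase, by 0.31, while NGLY1, which strips sugars from exported proteins, fell by 0.28 and EDEM3 by 0.26. SDF2L1 lost its call if DMSO replicate 4, or else CC-122 replicate 3, was omitted (adjusted p up to 0.0529), FKBP2 without any of 3 arrays (adjusted p up to 0.0526) and EDEM3 without any of 9 (adjusted p up to 0.0941). On the mean of its probes FKBP2 was at -0.01. Of 17 unfolded protein response regulators, 4 rose and 2 fell (23.5% and 11.8%), at a median of -0.03. Beside XBP1 these were ATF3 at 0.45, MBTPS2, a protease that activates ATF6, at 0.32, and NFE2L2 at 0.23, against MBTPS1, the partner protease, at -0.31 and ASNS, a target of ATF4, at -0.26. ATF3 and MBTPS2 were at 0.22 and 0.18 with the fixed offset, and MBTPS1 lost its call without any of 6 arrays (adjusted p up to 0.0785).

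**Figure D5:**
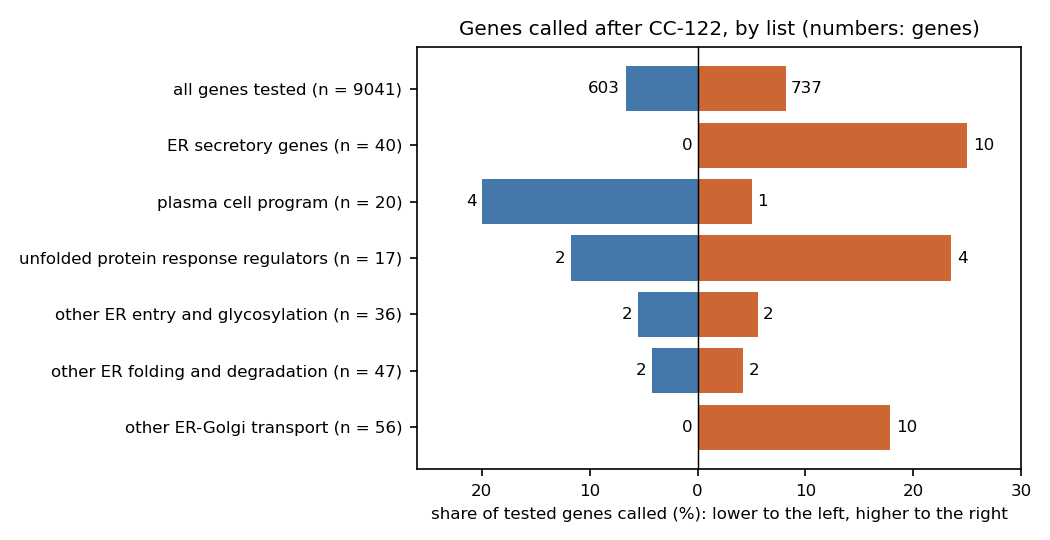
Share of tested genes in percent that were called lower (blue, to the left) or higher (orange, to the right) after CC-122, for all genes, the 40 ER secretory members and 5 further lists that hold none of the members. The members show 25% higher and 0 lower, against 8.15% and 6.67% of all genes.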

How the data were processed

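The authors deposited an intensity for each of 48107 probes on 10 arrays, not normalized per the file name, each with its detection p-value. They also deposited normalized values, on a log2 scale by their range, for 34468 probes; these matched the values computed here array by array (lowest correlation 0.99993), but the sources used here do not name the normalization method or the scanner software.

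The neqc function (limma 3.58.1, R 4.3.3) normalized the intensities (background estimated from detection p-values, offset 16, quantile normalization). 1 probe with a missing value was left out. Gene names came from the platform table, updated by gene identifier to GRCh38.p14: 26359 probes had 1 gene, 3 several and 21745 none. Probes detected (p below 0.05) on at least 5 arrays were kept, and the probe with the highest mean stood for its gene. Probe sequences were not used, so the exon measured and signal shared between similar genes were not examined. The CC-122 and DMSO groups were compared with limma's moderated test (lmFit, then eBayes), two-sided, p-values were adjusted over 9041 genes (Benjamini-Hochberg), and a gene was called at an adjusted p below 0.05. A log2 difference understates the change of dim probes. The number of arrays limits the precision.

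The members, lists and motifs were chosen with earlier results of these data known. The naming rule covered every member, XBP1, PRDM1 and IRF4, and up to 6 called genes per further list. The alternatives were an offset of 50, no background correction, median scaling, no filter, detection on all arrays, the mean of a gene's probes, the deposited log2 values, the replicate number as a block, an intensity trend, array weights and each array left out. Replicate numbers occur in both groups, and the labels do not say whether they mark pairs. Deviations of arrays with the same number correlated at -0.01 to 0.14, although most DMSO arrays correlated best with their own number. The main comparison left the arrays unpaired, and these values do not settle whether they are pairs. With the replicate block, 6 members were called. Figures were drawn with matplotlib 3.10.9.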

Additional observations from a re-analysis of the deposited data

Results flagged for a closer look

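Among 128 sets of 5 arrays (each named gene in each group), 4 held an array far from the other 4, where chance gives about 1 in 20. PDIA6 was at 9.47 on CC-122 replicate 4, against 9.06 to 9.12 on the other CC-122 arrays. P4HB was at 10.9 on CC-122 replicate 1, against 10.75 to 10.80 on the others. SSR3, a dim probe, was at 5.09 on CC-122 replicate 1, against 5.60 to 5.80. SDF2L1 was at 10.2 on CC-122 replicate 3, against 10.06 to 10.08. Without the array named, PDIA6 and P4HB were still called, and SDF2L1 was not.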

How the results depend on the processing

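Direction and call held for SEC61A1, PDIA6, P4HB, HSP90B1, KDELR1 and JCHAIN under all 20 alternatives, of which 10 left out an array. With the replicate block, 6 members rose, and the calls of HSPA5 (adjusted p = 0.0898), CRELD2 (adjusted p = 0.0943), MZB1 (adjusted p = 0.0696) and SEC24D (adjusted p = 0.0547) were lost. Leaving out 1 array gave 6 to 12 members higher and a median log2 change of 0.085 to 0.115. SPCS3 made 1 member lower with the fixed offset, without background correction and with the intensity trend. Signs turned for members near 0. PDIA4 was at 0.00017 with the fixed offset, 0.00068 without background correction, 0.012 with median scaling and 0.029 with array weights. SRP14 was at -0.011 with array weights, and FKBP2 at -0.0071 on the mean of its probes. Leaving out 1 array gave -0.051 to 0.12 for SEC63, -0.042 to 0.21 for SSR3, -0.041 to 0.028 for SRP14 and -0.070 to 0.060 for PDIA4. It gave -0.050 to 0.053 for CANX, -0.096 to 0.022 for HYOU1, -0.048 to 0.13 for DNAJC3 and -0.017 to 0.029 for SEC23B. The cause of these shifts was not tested. Of the DMSO arrays, 4 of 5 correlated best with the CC-122 array of their own number, which the labels do not explain. The share of members called higher was 15% to 30% over the alternatives, and that of all genes was at most 9.36%. Signal close to background limits SSR3, SEL1L, PRDM1, POU2F2, ATF3 and MBTPS2, whose changes shrink with a larger offset or have wide intervals.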

Other observations

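Outside the members, 17 further tested genes held an ERSE or ERSE-II. Of these, 3 rose: NUCB1, a calcium-binding protein of the Golgi, at 0.41 (limma adjusted p = 5.46e-04), XBP1 and SDF2L1. Those 3 were 17.6% of the 17, where 8.15% of all genes were called higher. NAV2 fell, with its 3 kept probes between -1.19 and -0.23. ERO1B, the ER oxidase that recharges disulfide isomerases, was at 0.45 on each of its 2 kept probes and did not pass the test (adjusted p = 0.0572). Even its brighter probe was dim, at a mean of 4.68 after DMSO and 5.12 after CC-122. It was detected on 2 of the DMSO arrays and 5 of the CC-122 arrays. FICD, which modifies HSPA5, was at 0.33 (adjusted p = 0.169). NUCB1, NAV2, ERO1B and FICD were chosen after their values were seen.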
